A study of Mus musculus with 3 samples.

Results

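Sox9, Sox5 and Sox6 are the 3 Sox transcription factors of the chondrocyte lineage, and they were matched by symbol to the features of 3 single-cell libraries of the mouse fracture callus. Each symbol matched 1 of 32285 features. Untreated C57BL/6 mice carried a femoral fracture, and the callus was taken at day 7, day 10 or day 14, with 1 library per day. The callus was cleaned of muscle and marrow and digested with collagenase, and live cells negative for CD31, CD45 and TER119 were sorted. The age of the mice, and whether animals were pooled, were not given in the sources used here. With 1 library per day no difference between days has a replicate check, and none was tested. All intervals below are 95% intervals that cover counting error only.

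Chondrocytes make the cartilage model that bridges a fracture and is later replaced by bone. Sox9 starts and maintains the chondrocyte fate by switching on the genes of the cartilage matrix, above all Col2a1, the main cartilage collagen, and Acan, the large proteoglycan that holds water in cartilage. Sox5 and Sox6 are close relatives of each other, carry no activation domain of their own, and bind beside Sox9 at the same cartilage genes. In the growth plate all 3 are known from dividing chondrocytes, and the program is wound down as cells enlarge into hypertrophic chondrocytes that secrete collagen X, the product of Col10a1.

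Sox9 is a compact gene with 1 annotated transcript (ENSMUSG00000000567, GRCm38 chr11:112782224-112787760, plus strand, 5.54 kb). Sox5 (ENSMUSG00000041540, chr6:143828425-144781977, minus strand) spans 954 kb with 14 transcripts, and Sox6 (ENSMUSG00000051910, chr7:115470872-116038796, minus strand) spans 568 kb with 16. Several antisense genes lie inside Sox5 and Sox6. Of these Sox6os held 236 UMIs (unique molecular identifiers, each marking 1 captured RNA molecule) and the Sox5 antisense genes at most 14 each, against 20433 for Sox6 and 13505 for Sox5. Sox9 held 114152. All these totals are over the cells without a UMI of Ptprc, the gene of the leukocyte antigen CD45. Because the capture reads the 3′ end, a level is not compared between these genes, only between cells for 1 gene.

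Sox proteins bind through an HMG box to short A- and T-rich sites. Windows of 250 bases upstream of annotated starts (RefSeq, GRCm38.p6) were searched on both strands for 8 words of 7 letters of that type, which start with AA, AT, TA or TT, go on with CAA, and close with AG or TG. Of all 32851 windows, 21.8% held at least 1. All 6 windows of Sox6 held 1 to 4 matches, the 1 window of Sox5 held none, and 4 of the 17 windows of the cartilage matrix genes described below held 1. The table held 14 of those 19 genes. Sox9 was not matched. Shown are the Sox5 window (chr6:143947107-143947356, minus strand, inside Sox5 and outside its exons), the Sox6 window with most matches (chr7:115995087-115995336, minus strand, inside Sox6 and across an exon of the plus-strand gene Gm45025), the most downstream Sox6 window (chr7:115801610-115801859, minus strand, between Sox6 exons) and the window with a match of Col9a1, a cartilage collagen gene (chr1:24177360-24177609, plus strand, outside annotated genes). Another Col9a1 window (chr1:24194953-24195202, plus strand, inside Col9a1) held none and is not shown. Capitals mark the matches, which are descriptions of the letters and not binding sites.
Sox5, internal start: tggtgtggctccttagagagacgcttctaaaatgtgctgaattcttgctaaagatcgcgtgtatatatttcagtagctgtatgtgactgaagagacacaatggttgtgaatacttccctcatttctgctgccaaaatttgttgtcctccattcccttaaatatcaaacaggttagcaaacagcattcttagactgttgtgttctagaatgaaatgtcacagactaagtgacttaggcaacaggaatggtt
Sox6, start with 4 matches: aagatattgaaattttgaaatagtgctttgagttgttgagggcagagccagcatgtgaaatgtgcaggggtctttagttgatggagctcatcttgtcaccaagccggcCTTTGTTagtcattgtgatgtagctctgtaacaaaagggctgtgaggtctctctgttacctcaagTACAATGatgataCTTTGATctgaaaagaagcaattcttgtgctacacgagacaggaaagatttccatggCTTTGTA
Sox6, most downstream start: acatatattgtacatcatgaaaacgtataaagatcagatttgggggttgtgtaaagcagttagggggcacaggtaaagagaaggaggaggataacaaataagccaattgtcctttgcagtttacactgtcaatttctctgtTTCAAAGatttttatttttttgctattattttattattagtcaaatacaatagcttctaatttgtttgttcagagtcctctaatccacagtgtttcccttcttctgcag
Col9a1: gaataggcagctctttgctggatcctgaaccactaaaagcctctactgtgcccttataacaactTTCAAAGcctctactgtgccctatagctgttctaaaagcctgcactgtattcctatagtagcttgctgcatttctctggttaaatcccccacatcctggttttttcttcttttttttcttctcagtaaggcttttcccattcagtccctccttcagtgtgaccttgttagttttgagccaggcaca

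Of 30888 deposited barcodes, 16714 passed the limits on genes, mitochondrial and hemoglobin UMIs and held no Ptprc UMI: 447 at day 7, 6587 at day 10 and 9680 at day 14. Their median depths were 6763, 17372 and 15838 UMIs. The day 7 library stood apart, because 6570 of its 7017 cells carried Ptprc despite the sort, and of the 447 that did not, 238 held fewer than 50 UMIs per 10000 of the matrix collagens Col1a1, Col1a2, Col2a1 and Col3a1. Neutrophil markers (S100a8, S100a9, Camp, Ngp and Ltf) summed to 96536 CPM (UMIs of the genes per 1000000 UMIs) in those cells and to 2033 in the remaining 209. Day 7 values are therefore given for small numbers of cells and beside the others. The libraries shared 29 to 42 barcodes with one another.

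Cells were binned by UMIs per 10000 of Cnmd, which encodes chondromodulin, a matrix protein of cartilage without vessels, and by Col10a1. Further groups were cells with at least 20 Aspn UMIs per 10000 (Aspn-high), Aspn encoding asporin, a small matrix proteoglycan, and cells with at least 1 UMI of Ifitm5, an osteoblast gene (Ifitm5-positive). Marker lists were read in each group. Chondrocyte markers summed to 66248 CPM at day 10 and 59326 at day 14 in cells with at least 20 Cnmd, against 5069 and 5015 in cells with none. Cells without Cnmd were a mixture, with osteoblast markers at 18388 and 13310.2 CPM, markers of Postn-expressing progenitors at 8501 and 7557, and pericyte markers at 285 and 360.1. Aspn-high cells held the progenitor markers at 13231 and 12722 CPM.

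All 3 Sox genes were higher in cells with at least 20 Cnmd than in cells with none, on each day. In cells with 0 Cnmd, Sox9 stood at 519.8 CPM (95% interval 492 to 548) at day 7 (n = 333 cells), 273 CPM (95% interval 266 to 279.5) at day 10 (n = 1588) and 218 CPM (95% interval 214 to 222) at day 14 (n = 4082). In cells with at least 20 Cnmd it stood at 1030.4 CPM (95% interval 968 to 1096) (n = 48), 702 CPM (95% interval 694 to 709) (n = 2522) and 490.4 CPM (95% interval 482 to 498) (n = 1406). The intervals of the high and the zero group did not overlap on any day. Sox5 went from 22.7, 26.8 and 23.7 CPM at day 7, 10 and 14 to 96.4, 100.2 and 70.4. Sox6 went from 46.1, 37.5 and 40.6 CPM to 133, 115 and 101. Cells without a Cnmd UMI still held Sox9 far above the level in blood cells, which is given below. In single cells with 20 to under 50 Cnmd at day 10, Sox9 ran from 0 to 36.0 UMIs per 10000 with a median of 5.65, and in cells with 0 Cnmd from 0 to 42.8 with a median of 1.09, so the groups overlapped cell by cell.

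As log2 ratios of the high over the zero group, Sox9 gave 1.36 (1.32 to 1.40) at day 10 and 1.17 (1.14 to 1.21) at day 14. Sox6 gave 1.62 (1.51 to 1.72) and 1.31 (1.23 to 1.39), and Sox5 1.90 (1.78 to 2.03) and 1.57 (1.47 to 1.67). Sox5 had the steepest ratio and Sox9 the shallowest on both days, and the intervals of these extremes did not overlap. The first place of Sox5 depended on the zero group. With only zero-group cells of under 5 Col10a1, the mean over both days was 1.70 for Sox5 and 1.74 for Sox6, with Sox9 still lowest at 1.41. The median over all genes was -0.31 and -0.37. All 3 genes were thus at least 2-fold higher on both days, where 5.41% of tested genes at day 10 and 4.24% at day 14 were, and 17.8% and 19.1% were at least 2-fold lower. Relative to the 12928 genes with at least 50 UMIs at day 10, 96.3% had a smaller ratio than Sox9, 97.1% a smaller one than Sox6 and 97.8% a smaller one than Sox5. At day 7 the ratios were 0.99, 1.53 and 2.09 for Sox9, Sox6 and Sox5. Against only those 103 day 7 cells without Cnmd that did hold the matrix collagens, they were 0.38, 0.88 and 1.45.

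The course over the Cnmd bins differed between the genes. Sox9 at day 10 was 273, 388, 647, 719.8 and 604 CPM in cells with 0, above 0 to under 5, 5 to under 20, 20 to under 50 and 50 or more Cnmd UMIs per 10000, and 218, 297, 391, 497 and 443 at day 14. It was highest in the next-to-last bin and lower again in the last on these days. Day 7 gave 519.8, 725, 768, 1009.8 and 1228 CPM, the last from 6 cells, with no lower last bin. Sox6 at day 10 was 37.5, 57.8, 113, 117 and 107, and at day 14 40.6, 58.9, 91.0, 101 and 97.1, so that it was near its top level from 5 Cnmd on. Sox5 was 26.8, 31.8, 64.7, 97.4 and 116 at day 10, and 23.7, 28.9, 48.2, 66.8 and 95.7 at day 14, and was highest in the last bin on both days. Between the last bins, 50 or more over 20 to under 50 Cnmd, the log2 ratio of Sox5 was 0.25 (0.14 to 0.35) and 0.52 (0.35 to 0.69), while that of Sox9 was -0.25 (-0.30 to -0.21) and -0.17 (-0.24 to -0.09). For Sox6 it was -0.12 (-0.23 to -0.01) at day 10 and -0.06 (-0.22 to 0.10) at day 14, the latter within counting error of 0.

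**Figure D1:**
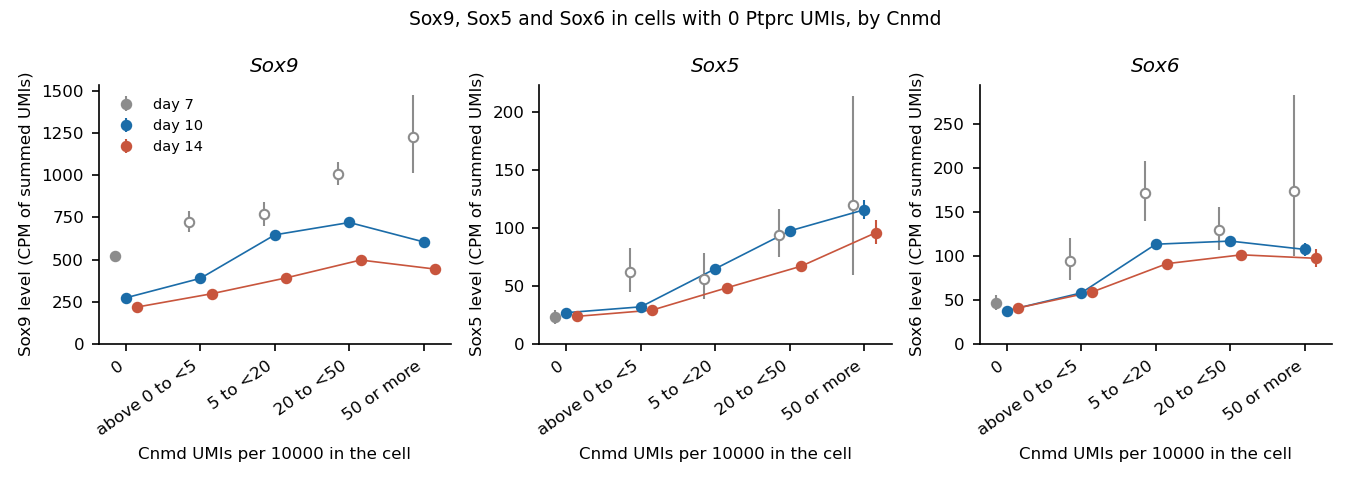
Level of Sox9, Sox5 and Sox6 (CPM, from the summed UMIs of each bin) against Cnmd UMIs per 10000, with 95% Poisson intervals, for day 7 (grey), day 10 (blue) and day 14 (red). Open points are bins of fewer than 50 cells, which are all day 7 bins above 0 Cnmd. Sox9 tops out at 719.8 CPM (day 10) and 497 (day 14) before the last bin, while Sox5 is highest in the last bin at 116 and 95.7.

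Along Col10a1, which marks hypertrophy, the trio came apart. Sox5 stood at 105 CPM (95% interval 102 to 108) at day 10 and 74.8 CPM (95% interval 71.5 to 78.2) at day 14 in cartilage cells (at least 20 Cnmd and under 5 Col10a1, 2289 and 1247 cells). In the 339 and 708 cells with at least 200 Col10a1 it stood at 19.2 CPM (95% interval 15.8 to 23.1) and 19.2 CPM (95% interval 16.9 to 21.9), a 5.45-fold and a 3.89-fold lower level. Sox9 was 682 and 481 CPM in the cartilage cells and 505 and 413 in the hypertrophic ones. Sox6 was 117 and 101 against 75.5 and 82.6. Hypertrophic cells thus kept most of the Sox9 and Sox6 RNA level of cartilage cells and the smallest part of the Sox5 level.

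The log2 ratios of Sox5 were -2.45 (-2.73 to -2.18) at day 10 and -1.96 (-2.16 to -1.76) at day 14. Those of Sox9 were -0.43 (-0.49 to -0.38) and -0.22 (-0.27 to -0.17), and those of Sox6 -0.63 (-0.78 to -0.49) and -0.28 (-0.39 to -0.18), against a median over all genes of 0.05 and 0.03. All 3 genes were lower on both days, and the interval of Sox5 lay apart from both others. Only 3.41% of 12071 genes at day 10 and 4.30% of 11724 at day 14 had a lower ratio than Sox5. For Sox9 the shares were 27.7% and 36.6%, and for Sox6 21.4% and 33.5%. Day 7 held 2 cells with at least 200 Col10a1, with 15, 2 and 3 UMIs of Sox9, Sox5 and Sox6, too few to read.

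Over the Col10a1 bins (0, above 0 to under 5, 5 to under 50, 50 to under 200, and 200 or more), Sox5 was 71.3, 71.5, 46.3, 33.2 and 19.2 CPM at day 10, and 40.5, 43.5, 32.1, 23.7 and 19.2 at day 14. The first bin with a lower level was that of 5 to under 50 Col10a1. Sox9 was 472, 559, 734, 588 and 505 at day 10, highest in the middle bin, and 235, 313, 373, 385 and 413 at day 14, highest in the last. Sox6 was 78.9, 91.5, 108, 84.3 and 75.5, and 49.9, 61.2, 88.8, 83.5 and 82.6. The bins with little Col10a1 are mixtures of cartilage and other cells, which a split by both markers separates.

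**Figure D2:**
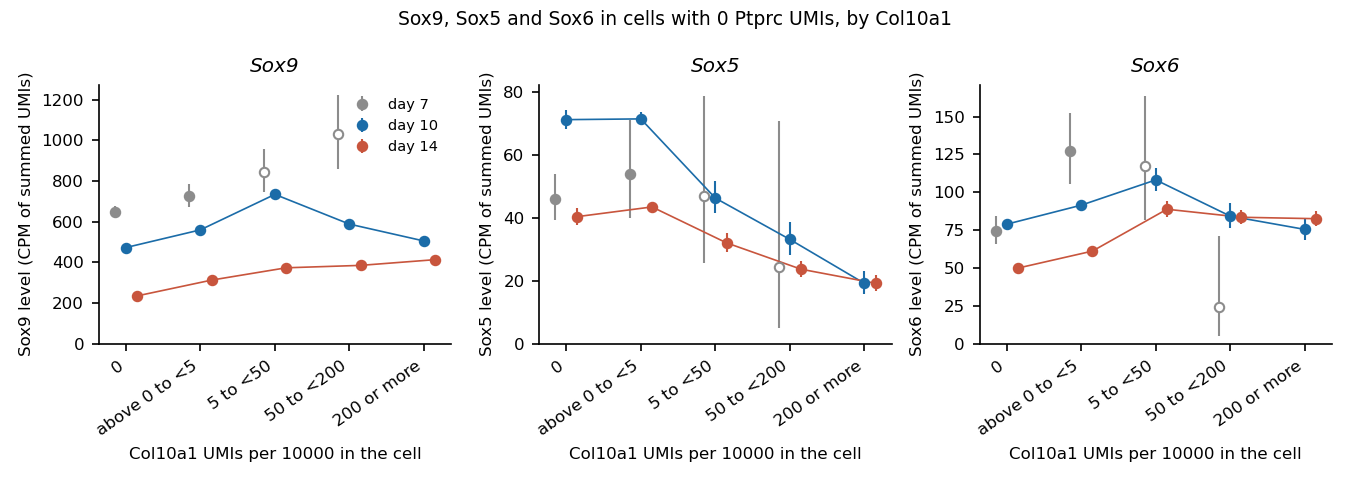
Level of Sox9, Sox5 and Sox6 (CPM of summed UMIs) against Col10a1 UMIs per 10000, with 95% Poisson intervals, for day 7 (grey), day 10 (blue) and day 14 (red), with open points for bins of fewer than 50 cells and the day 7 bin of 2 cells left out. Sox5 falls to 19.2 and 19.2 CPM in the last bin at day 10 and day 14, where Sox9 is still at 505 and 413.

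The cells were therefore split by Cnmd and Col10a1 together. Among cells with 20 to under 50 Cnmd at day 10, Sox9 was 644, 720.5, 923 and 955 CPM from 0 Col10a1 to 50 to under 200 (645, 1204, 142 and 53 cells). In the same cells Sox5 was 108, 99.6, 61.2 and 60.9, and Sox6 114, 121, 106 and 75.9. Cells that held both markers thus had the highest Sox9 of the grid at day 10, where the intervals of the bins with 5 to under 50 and 50 to under 200 Col10a1 overlapped, together with a lower Sox5. Day 14 gave 411, 497 and 569.9 for Sox9 and 70.0, 71.4 and 40.7 for Sox5 over the first 3 Col10a1 bins. In cells with 5 to under 20 Cnmd, Sox5 fell with each Col10a1 bin, from 83.9 to 24.9 CPM at day 10 and from 64.8 to 25.4 at day 14, while Sox6 went from 102 to 92.1 and from 83.0 to 86.5. Cells without Cnmd at day 14 had more Sox9 and Sox6 with more Col10a1: Sox9 went from 167 to 420.0 CPM and Sox6 from 32.5 to 93.3.

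**Figure D3:**
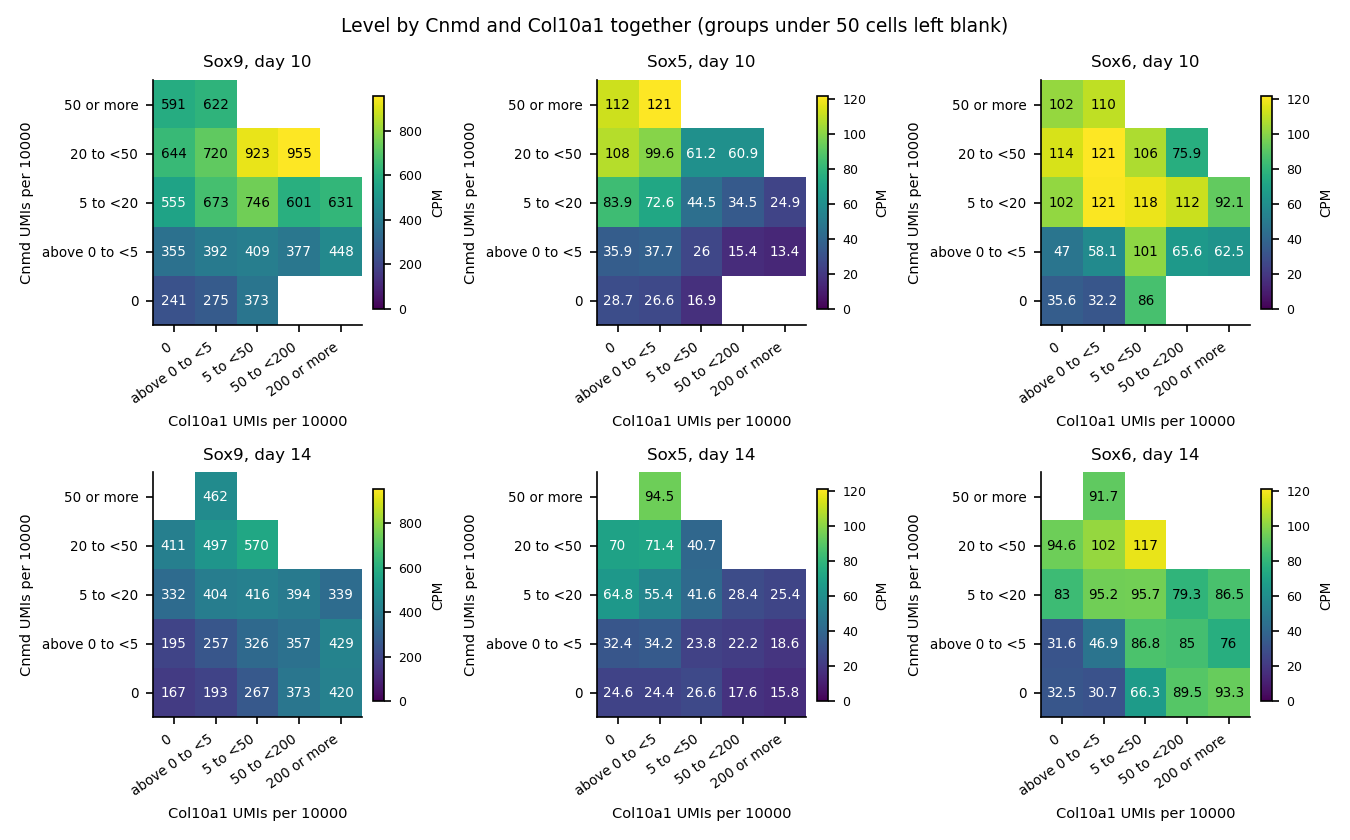
Heat maps of the level of Sox9, Sox5 and Sox6 (CPM, colour and printed value) in groups of cells defined by Cnmd (rows) and Col10a1 (columns) UMIs per 10000, at day 10 (top) and day 14 (bottom), with groups of fewer than 50 cells blank. Each gene has 1 colour scale for both days. The highest Sox9 value, 955 CPM, lies at 20 to under 50 Cnmd and 50 to under 200 Col10a1 at day 10, while the highest Sox5 values lie at the top left, with much Cnmd and little Col10a1.

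Hypertrophic chondrocytes end by making Mmp13, the collagenase with which mineralizing cartilage is opened to bone. Cells with at least 50 Col10a1 were split at 20 Mmp13 UMIs per 10000. Sox9 was 695 and 493 CPM at day 10 and day 14 in the 324 and 883 cells below that limit, and 357 and 265 in the 283 and 682 cells above it. The log2 ratios were -0.96 (-1.04 to -0.88) and -0.90 (-0.96 to -0.84). Sox9 was thus lower in the Mmp13-rich cells on these days, while day 7, with 4 cells on each side, gave 1012 CPM above and 682 below the limit, a log2 ratio of 0.57 (0.08 to 1.07). Sox5 went from 36.6 to 12.3 at day 10 and from 25 to 17.0 at day 14. Sox6 went from 92.8 to 63.3 and from 93.0 to 69.2. This split was chosen after the levels were seen.

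The genes that the trio is known to control were followed in the same contrasts. Of 19 cartilage matrix genes, 19 were at least 2-fold higher in cells with at least 20 Cnmd than in cells with none, on both days, against the 5.41% and 4.24% of all tested genes given above. Their median log2 ratio was 3.91 and 3.77. Cnmd, which chose the cells, is itself a cartilage gene, so these counts describe the cells and support nothing about the trio. The Sox genes, at log2 ratios below 2, moved less than most of their matrix genes. Col2a1 went from 3572 to 45692 CPM at day 10, a log2 ratio of 3.68. The link protein Hapln1, which ties aggrecan to hyaluronan, had 3.91 and 3.81. Ucma, a Gla protein of cartilage, had 6.34 and 6.68, and Wwp2, the ubiquitin ligase gene that hosts the cartilage microRNA miR-140, the lowest with 1.42 and 1.14.

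In the hypertrophy contrast 9 of the 19 matrix genes at day 10 and 11 at day 14 were at least 2-fold lower and none was 2-fold higher, where 14% and 12.8% of all tested genes were lower and 11.9% and 10.9% higher. The matrix genes did not move alike. Ucma (-4.12 and -5.39), Scrg1, a gene of chondrogenesis (-3.72 and -4.00), Epyc, a small proteoglycan of the growth plate (-3.15 and -4.45), and the matrilin genes Matn3 (-2.04 and -2.91) and Matn4 (-2.36 and -3.41) were far lower on both days. Acan (0.03 and -0.13), Col2a1 (-0.62 and -0.86) and the proteoglycan gene Snorc (0.74 and 0.78) stayed within 2-fold, the range in which Sox9 and Sox6 lay.

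Of 16 signalling genes and early regulators, 14 were tested in the hypertrophy contrast, and 7 were at least 2-fold lower and 1 higher on each day. Fgfr3, the receptor that restrains chondrocyte growth, was at -1.55 and -1.53, Ptch1, the hedgehog receptor and target, at -1.61 and -2.20, and Gli1, a hedgehog factor and target, at -4.34 (-6.62 to -2.78) and -4.15 (-5.48 to -3.09), the first from 3 UMIs in the hypertrophic cells. Pth1r, the receptor for parathyroid hormone-related protein, was the 1 that was higher, at 1.29 and 1.13. Of 16 hypertrophy and bone genes, 11 were at least 2-fold higher on each day and none lower, against the 11.9% and 10.9% of all tested genes that were higher. Col10a1, which chose the cells, is itself a hypertrophy gene, so this count describes the cells. The higher genes included Ihh, the hedgehog ligand of prehypertrophic cells (5.35 and 4.85), Mef2c (2.01 and 2.08) and Runx2 (1.63 and 2.00), factors that drive hypertrophy, and Foxa2, a further one (3.11 and 2.41). In the Cnmd contrast, where 5.41% and 4.24% of all tested genes were at least 2-fold higher and 17.8% and 19.1% lower, 1 of 15 signalling genes tested was higher, Fgfr3 at 2.37 and 2.39, and 5 were lower on each day (Bmpr1b, Barx2, Pthlh, Prrx1 and Scx on both). Of the hypertrophy and bone genes 3 were higher and 4 lower at day 10, and 2 and 5 at day 14. The higher ones were Foxa2, Foxa3 and Panx3 at day 10 and Foxa3 and Panx3 at day 14.

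**Figure D4:**
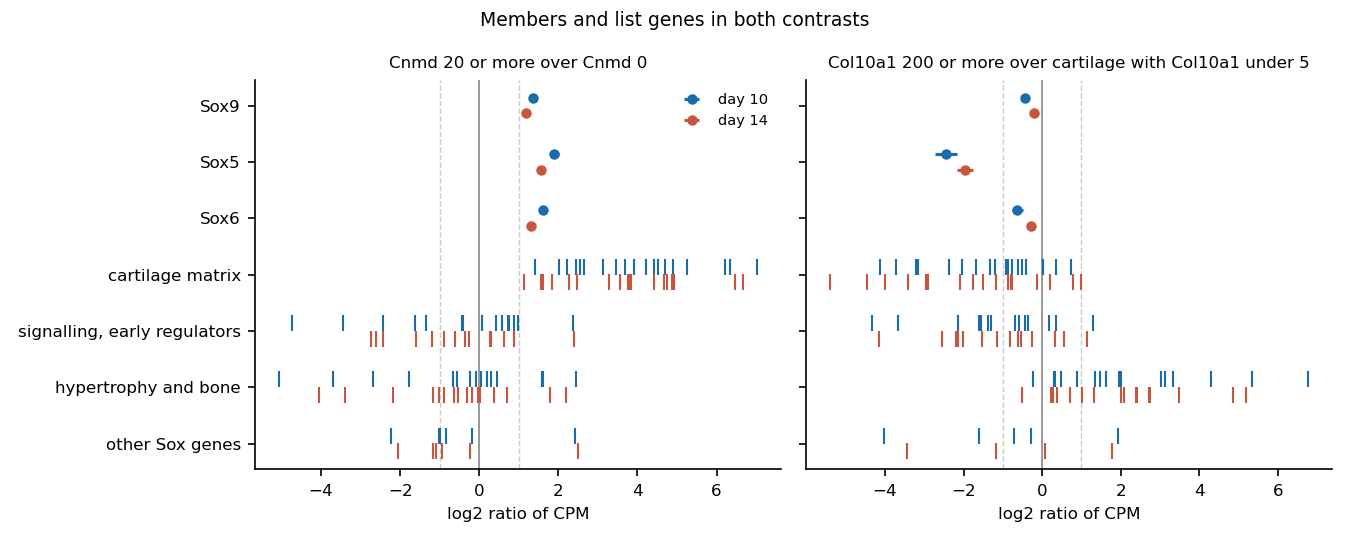
Log2 ratios of Sox9, Sox5 and Sox6 (points, with 95% exact intervals) and of each tested gene of 4 lists (ticks) at day 10 (blue) and day 14 (red), for cells with at least 20 Cnmd over cells with 0 (left) and for cells with at least 200 Col10a1 over cartilage cells (right). Dashed lines mark 2-fold. All cartilage matrix ticks lie beyond 2-fold on the left, and on the right Sox5 lies at -2.45 and -1.96 while Sox9 and Sox6 lie between -0.63 and -0.22.

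Among the other 16 Sox genes, 4 had at least 1000 UMIs over the matrix-expressing cells and 4 had none. Sox8, a close relative of Sox9, had the same direction as the trio: 2.63 and 2.21 CPM in cells without Cnmd and 14.1 and 12.5 in cells with at least 20. In the hypertrophic cells it stood at 10.6 and 11.1. Sox4, which acts in many progenitor cells and in osteoblasts, went the other way, with 249 and 227 CPM without Cnmd, 124 and 102 with Cnmd and 507 and 367 in hypertrophic cells. Sox11, its close relative, was lower in hypertrophic cells, with log2 ratios over cartilage of -4.02 (-9.34 to -1.52) and -3.44 (-5.75 to -1.83) that rest on 1 and 3 UMIs.

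Aspn-high progenitor cells held all 3 genes at levels below those of cartilage. Sox9 was 309 CPM (95% interval 302 to 317) at day 10 (n = 1464) and 212 CPM (95% interval 207 to 216) at day 14 (n = 3184), and 468 in the 13 such cells at day 7. Sox5 was 47.2 CPM (95% interval 44.4 to 50.2) and 32.7 CPM (95% interval 31.1 to 34.4), and Sox6 42.9 CPM (95% interval 40.2 to 45.7) and 27.2 CPM (95% interval 25.7 to 28.7). Against cells with at least 20 Cnmd, the log2 ratios were -1.18 and -1.21 for Sox9, -1.09 and -1.10 for Sox5 and -1.42 and -1.89 for Sox6, the lowest of the 3 on these days. In the 13 cells of day 7, Sox5 was 13.1 CPM, from 3 UMIs, and Sox6 61.3, from 14. There Sox5 had the lowest ratio, -2.88 (-5.18 to -1.28). Sox9 had -1.14 (-1.44 to -0.85) and Sox6 -1.12 (-2.03 to -0.32), with intervals that overlapped that of Sox5. The Aspn-high group is not free of cartilage genes, as 10.2% of it at day 10 held 5 to under 20 Cnmd and 9.90% at least 20, against 6.66% and 2.32% at day 14. Among Aspn-high cells with under 5 Cnmd, Sox9 was 259 and 199 CPM, Sox5 34.5 and 29.5, and Sox6 31.4 and 22.5. In the 294 and 286 Aspn-high cells with at least 5 Cnmd, Sox9 was 504 and 329.6, Sox5 96.4 and 62.4, and Sox6 87.4 and 70.3. In these cells, which carry both a progenitor and a cartilage marker, Sox5 lay below its level in all cells with at least 20 Cnmd, 100.2 and 70.4 CPM. The Cnmd limits of these groups differ.

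Ifitm5-positive cells had Sox9 at 451 CPM (95% interval 437 to 464) at day 10 (n = 507) and 245 CPM (95% interval 238 to 252) at day 14 (n = 1078). Their Sox5 was 36.2 and 26.9, and their Sox6 80.1 and 66.8. A single Ifitm5 UMI is a weak mark of an osteoblast, since 99 of these cells at day 10 and 100 at day 14 also held at least 20 Cnmd. A limit of 5 Ifitm5 UMIs per 10000 left 130 and 387 cells, with osteoblast markers at 77122 and 68176 CPM and chondrocyte markers at 7221 and 4224. In them Sox9 was 261 CPM (95% interval 240.3 to 284) and 111 CPM (95% interval 102 to 119.9). Sox5 was 3.22 CPM (95% interval 1.29 to 6.64) at day 10, from 7 UMIs, and 10.2 CPM (95% interval 7.73 to 13.2) at day 14, from 57. Sox6 was 41.9 CPM (95% interval 33.7 to 51.4) and 57.1 CPM (95% interval 51.0 to 63.7). At day 10 and day 14, osteoblast-rich cells thus held the lowest Sox5 of the skeletal groups and kept a larger part of the Sox6 level of cartilage. Their log2 ratios over cells with at least 20 Cnmd were -4.96 (-6.27 to -3.92) and -2.79 (-3.19 to -2.41) for Sox5. For Sox6 they were -1.46 (-1.78 to -1.16) and -0.82 (-0.99 to -0.65). The same held in those of them with under 5 Cnmd and under 5 Col10a1 (114 and 333 cells), with Sox5 at 2.08 and 7.03 CPM and Sox6 at 40.1 and 54.3. Day 7, with 8 cells at that Ifitm5 limit, did not show this. There Sox5 was 41.2 CPM, from 6 UMIs, and Sox6 48.1, from 7. The day 7 log2 ratios were -1.23 (-2.71 to -0.05) for Sox5 and -1.47 (-2.81 to -0.39) for Sox6. Aspn-high cells of day 7 held less Sox5, 13.1 CPM from 3 UMIs.

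Blood cells, which should lack the trio, give the background. The 6509 day 7 cells with Ptprc and under 50 matrix UMIs, largely blood cells with a median of 5017 UMIs, held Sox9 at 2.85 CPM (95% interval 2.39 to 3.36), Sox5 at 0.407 CPM (95% interval 0.248 to 0.628) and Sox6 at 0.305 CPM (95% interval 0.171 to 0.503). At day 14 the 113 cells of that kind (median 7004 UMIs) held more, Sox9 at 35.3 CPM (95% interval 25 to 48.5), Sox5 at 0.930 CPM (95% interval 0.0235 to 5.18) and Sox6 at 7.44 CPM (95% interval 3.21 to 14.7), and at day 10 there were 3 such cells, too few to read. The skeletal groups above lay over these values for Sox9 and Sox6, and the 7 Sox5 UMIs of the Ifitm5-rich cells at day 10 lay nearest. Their Sox5 interval, 1.29 to 6.64 CPM, overlapped that of the day 14 blood cells, so this level is not told apart from the background. Cells with at least 20 UMIs per 10000 of Rgs5, a pericyte gene (71 at day 10 and 200 at day 14, median 12529 and 9262.5 UMIs), held Sox9 at 24.5 CPM (95% interval 15.5 to 36.8) and 36.8 CPM (95% interval 29.2 to 45.9) and Sox6 at 2.13 CPM (95% interval 0.258 to 7.70) and 6.53 CPM (95% interval 3.57 to 11.0), the former from 2 UMIs. Both were the lowest levels among the groups without Ptprc described here for those days. Their Sox5 was 30.9 CPM (95% interval 20.7 to 44.4) and 30.8 CPM (95% interval 23.8 to 39.1), which overlaps its level in cells without Cnmd. At day 14 the Sox9 and Sox6 intervals of Rgs5-rich cells overlapped those of the blood cells, and the Sox5 interval lay above.

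Ordered by level, Sox9 ran from cartilage cells with at least 20 Cnmd through hypertrophic cells and Ifitm5-positive cells to Aspn-high cells and the osteoblast- and pericyte-rich cells on both days. The intervals of Aspn-high cells and cells without Cnmd overlapped at day 14, at 207 to 216 and 214 to 222 CPM. So did those of cells without Cnmd and Ifitm5-rich cells at day 10. Overlap alone does not show that the levels are equal, and these groups share cells: 1894 of 3184 Aspn-high cells at day 14 and 78 of 130 Ifitm5-rich cells at day 10 had no Cnmd UMI. Sox6 had a similar order, with Ifitm5-positive and hypertrophic cells overlapping at day 10, at 74.5 to 85.9 and 68.6 to 82.9, but with Aspn-high cells below Ifitm5-rich cells at day 14, at 25.7 to 28.7 against 51.0 to 63.7. The order of Sox5 at day 10 and day 14 was a different one. Aspn-high cells came next to cartilage, then Ifitm5-positive, Rgs5-rich and Cnmd-free cells, whose intervals overlapped with their neighbours, then hypertrophic cells, and last the Ifitm5-rich ones.

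Co-detection was read after each cell was thinned to 2000 UMIs, which left out 96 shallower cells at day 10 and 188 at day 14. Of cells with at least 20 Cnmd, 62.3% (60.3% to 64.2%) at day 10 and 53.8% (51.1% to 56.4%) at day 14 then held Sox9, 17.9% and 14.1% Sox5, and 19.3% and 19.9% Sox6. Blood cells of day 7 treated alike gave 0.783%, 0.131% and 0.0816%. They come from another library, and the blood cells of day 14 held more Sox9 and Sox6, as given above. The day 7 shares can therefore understate the background at day 10 and day 14. UMIs of all 3 genes were found in 2.84% (2.22% to 3.57%) of these cartilage cells at day 10 and 1.65% (1.05% to 2.46%) at day 14, or 71 of 2502 and 23 of 1395 cells. The product of the single shares, the value if the genes were found independently, was 2.16% and 1.51%, just under the interval at day 10 and within it at day 14. At full depth (median 19012 and 20939 UMIs), 59.3% and 52.2% of the cells held all 3 and 1.27% and 0.996% none. These shares rise with depth. Blood cells of day 7 at full depth, with a lower median of 5017 UMIs, held Sox9 in 1.86%, Sox5 in 0.277% and Sox6 in 0.200% of cells. The limit of another library applies here too.

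Within cartilage the product of the single shares lay inside the interval of each pair. Sox9 and Sox6 shared 12.7% (11.4% to 14.0%) of cells with at least 20 Cnmd at day 10, with a product of 12.0%, and 11.0% (9.44% to 12.8%) at day 14, with 10.7%. Sox9 and Sox5 shared 11.4% (10.2% to 12.7%), with 11.1%, and 7.53% (6.20% to 9.04%), with 7.59%. Sox5 and Sox6 shared 4.08% (3.34% to 4.93%) of cells at day 10, with a product of 3.46%, and 2.87% (2.06% to 3.88%) at day 14, with 2.81%. Sox9 was found in 63.8% of day 10 cartilage cells with a Sox5 UMI and in 61.9% of those without, and at day 14 in 53.3% and 53.8%. In Aspn-high cells of day 10 the pairs exceeded the product: Sox9 and Sox5 were together in 5.01% (3.94% to 6.25%) of cells, with a product of 3.33%, and Sox9 was found in 52.5% of those with Sox5 and 33.1% of those without. At day 14 the values were 1.93% (1.48% to 2.47%) and 1.86%. In cells without Cnmd, Sox9 and Sox6 were together in 3.18% (2.65% to 3.77%) at day 14, with a product of 2.09%. The part of the Aspn-high cells with Cnmd in the day 10 excess was not tested.

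**Figure D5:**
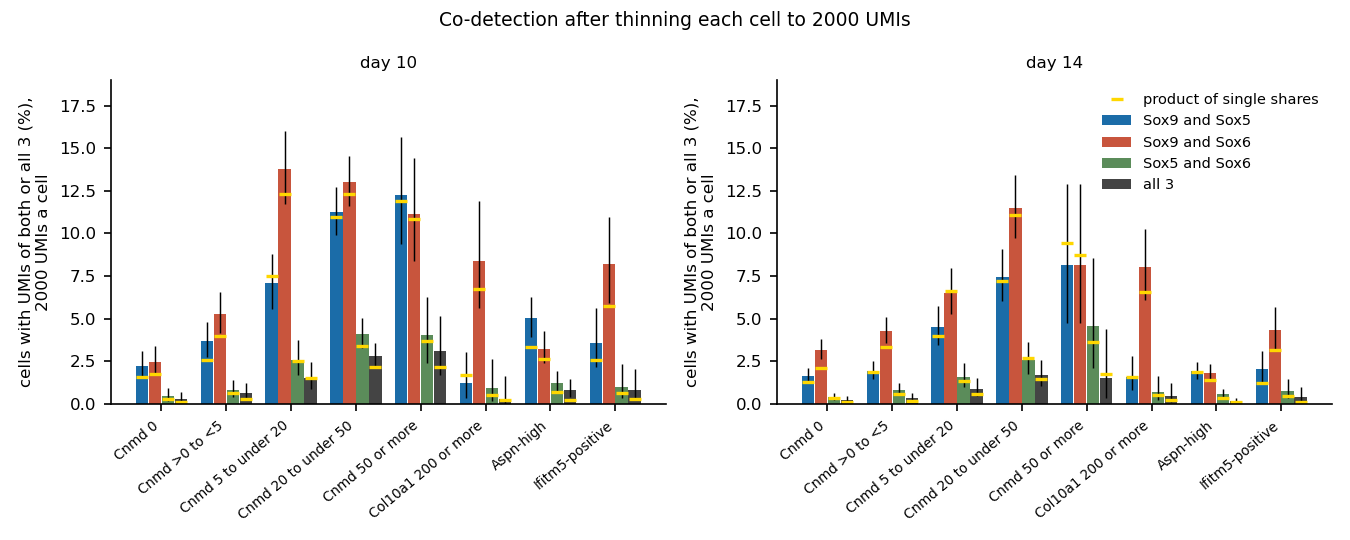
Share of cells with UMIs of 2 or of all 3 Sox genes after thinning each cell to 2000 UMIs, in 8 groups at day 10 (left) and day 14 (right), with 95% exact binomial intervals. Yellow marks show the product of the single shares. Sox9 and Sox6 together reach 13.8% at 5 to under 20 Cnmd at day 10, while Sox9 and Sox5 together fall to 1.20% and 1.57% in cells with at least 200 Col10a1.

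Among hypertrophic cells the Sox9 and Sox6 pair was found more often than the pair with Sox5. Sox9 and Sox6 were together in 8.38% (5.64% to 11.9%) of them at day 10 and 8.0% (6.10% to 10.3%) at day 14. Sox9 and Sox5 were together in 1.20% (0.327% to 3.04%) and 1.57% (0.787% to 2.79%). These cells held 112 and 236 Sox5 UMIs against 440 and 1013 of Sox6. The difference between the pairs is therefore not read as a difference in pairing. At full depth 16.2% and 16.0% held all 3.

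Within the same bin the genes were lower at day 14 than at day 10 in most groups. In cells with at least 20 Cnmd the log2 ratio of day 14 over day 10 was -0.52 (-0.55 to -0.49) for Sox9, -0.51 (-0.59 to -0.44) for Sox5 and -0.20 (-0.26 to -0.13) for Sox6, with a median over all genes of -0.04. In Aspn-high cells it was -0.55 (-0.59 to -0.50), -0.53 (-0.64 to -0.41) and -0.66 (-0.78 to -0.54). Hypertrophic cells gave -0.29 (-0.36 to -0.22), 0.00 (-0.33 to 0.34) and 0.13 (-0.03 to 0.29), so there the intervals of Sox5 and Sox6 included 0. Ifitm5-rich cells went both ways, with -1.24 (-1.40 to -1.07) for Sox9 but 1.66 (0.53 to 3.04) for Sox5, from 7 UMIs at day 10, and 0.45 (0.11 to 0.80) for Sox6. Over all cells the ratios were -0.75 (-0.77 to -0.74), -0.78 (-0.83 to -0.73) and -0.41 (-0.45 to -0.37). The share of cartilage cells moved with the day, since 2522 of 6587 cells had at least 20 Cnmd at day 10 and 1406 of 9680 at day 14. The early response genes Fos and Jun, which rise when tissue is handled, moved with the day too, from 1915 and 1823 CPM to 1170.1 and 1225 in cells with at least 20 Cnmd. Their part in the difference was not tested, and with 1 library per day the day and the library cannot be told apart.

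The genes most like each member were sought over the 38 groups of at least 50 cells in the Cnmd by Col10a1 grid of day 10 and day 14, by the Pearson correlation of log2(CPM + 10) among 10028 genes. The groups were cut on Cnmd and Col10a1, so correlations with genes of cartilage or hypertrophy follow in part from that cut. They also share 2 libraries and their depth, so the correlations are a description. Sox9 was followed most closely by Klf2 (r = 0.937), a factor of the Krüppel family, Slc35d1 (r = 0.932), a carrier of nucleotide sugars for cartilage proteoglycan, Vps37b (0.915), Crlf3 (0.911) and Hip1r (0.899). Klf2 is also known to respond to handling, and within day 10 and day 14 it had r = 0.894 and 0.958 with Sox9 and 0.860 and 0.942 with Sox6. Jun, within the same days, had 0.743 and 0.820 with Sox9 and 0.745 and 0.734 with Sox6, and Fos 0.489 and 0.734 and 0.724 and 0.735. Sox6 was followed most closely by Col2a1 (r = 0.918), then Msi2 (0.906), Prkg2, the kinase that acts in growth plate chondrocytes (0.905), Cd24a (0.899) and Zfp385b (0.893). Sox5 was followed by Mbnl2, a splicing factor (r = 0.962), Fgfrl1, a decoy-like FGF receptor (0.946), 1190005I06Rik (0.945) and Aff3 (0.944). Sox9 and Sox6 had followers in common, as Col2a1 within day 10 and day 14 had r = 0.919 and 0.939 with Sox9 and 0.901 and 0.937 with Sox6.

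Among the 3 themselves, Sox9 and Sox6 had r = 0.803 over both days (0.794 and 0.942 within day 10 and day 14), Sox9 and Sox5 0.531 (0.597 and 0.351), and Sox5 and Sox6 0.457 (0.550 and 0.301). With Col10a1, which helped to set the groups, the correlations were 0.232 for Sox9, 0.268 for Sox6 and -0.597 for Sox5. These values restate the levels over the bins. Runx2, the factor shared by osteoblasts and hypertrophic chondrocytes, had r = -0.832 with Sox5 (-0.910 and -0.895 within the days), -0.121 with Sox9 (-0.320 and -0.0807) and -0.0775 with Sox6 (-0.221 and 0.0171). Sox5 thus had a pattern opposite to that of Runx2 over these groups, which the other members did not show.

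Within the Aspn-high group, cells with a Sox9 UMI were set beside cells without. There were 1119 with and 345 without at day 10, and 2301 and 883 at day 14. Those with Sox9 were deeper (median 15965 against 11750 UMIs at day 10), so the split was repeated with Sox9 read from the thinned cells, and that value follows in brackets after each mean log2 ratio of the 2 days. The thinned split had 510 cells with and 948 without at day 10, and 889 and 2277 at day 14. Many cells with Sox9 at full depth thus counted as without. A smaller value in brackets can therefore not be read as an effect of depth alone. The genes highest in cells with Sox9 were Fzd9, a Wnt receptor (1.76 [1.10]), Frzb, a secreted Wnt antagonist of cartilage (1.76 [0.85]), Scrg1 (1.67 [0.76]), Adamts18 (1.6 [0.37]), Ucma (1.54 [0.57]), Cnmd (1.43 [0.72]), Col9a1 (1.37 [0.73]), Matn3 (1.35 [0.66]), Col11a2 (1.31 [0.64]) and Trpv4, an ion channel of chondrocytes (1.28 [0.73]). Of these 10 genes, Scrg1, Ucma, Col9a1, Matn3 and Col11a2 were on the cartilage matrix list. The split includes the Aspn-high cells with at least 5 Cnmd, which held more Sox9 than the others, as given above. It was not repeated without them, and their part in this list was not tested. Sox5 and Sox6 stood at 0.82 [0.49] and 1.05 [0.72], and Aspn itself at -0.17 [-0.09]. Lowest were Ostn, a peptide of periosteal and bone-forming cells (-2.16 [-2.24]), Eln, elastin (-1.99 [-1.63]), Bglap2, an osteocalcin gene (-1.89 [-2.0]), Cxcl14 (-1.75 [-0.83]) and Tspan7 (-1.72 [-1.35]). The bone gene Ibsp was not lower, at 0.78 [0.06]. Some means join unlike days. Cxcl14 had -3.06 at day 10 and -0.44 at day 14, Bglap2 -2.63 and -1.14, and Adamts18 2.30 and 0.89. The reads of Bglap2 and its near-identical neighbour Bglap can be split between them, so its value is uncertain.

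Among cells without Cnmd the same split, with the same limit on the values in brackets, gave other genes. Highest were Pcp4 (2.95 [2.31]), Lbhd2 (2.50 [1.75]), Scin (2.28 [2.12]), Meltf (2.15 [2.12]), Fzd9 (2.01 [1.48]), Gm31048 (1.94 [0.80]), Hapln1 (1.94 [1.77]), Smim5 (1.94 [1.67]), Rarres1 (1.86 [1.15]) and Eps8l2 (1.85 [1.55]). Lowest were 5 genes known from pericytes and vessel walls: Higd1b (-4.28 [-4.91]), Rgs5 (-4.12 [-4.04]), Mcam (-3.19 [-2.23]) and the basement membrane collagens Col4a1 (-3.20 [-3.18]) and Col4a2 (-3.03 [-2.77]). Only Fzd9 was among the 10 highest in both groups. Col2a1 stood at 1.5 [1.62], so among cells without a Cnmd UMI those with Sox9 held more of the main cartilage collagen. They also held more Col10a1 (0.66 [1.02]) and more of the bone gene Ibsp (0.91 [0.69], with 1.59 at day 10 and 0.24 at day 14). The cells without Cnmd include 49 at day 10 and 217 at day 14 with at least 200 Col10a1.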

How the data were processed

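Per the labels, the authors sequenced 10x Genomics single-cell 3′ libraries and counted UMIs with Cell Ranger on mm10. The versions named differ between sources (Cell Ranger 3.0 in the submitters' processing notes, 3.1.0 in the matrix headers). The deposited values were counts of UMIs per gene and barcode, not normalized. Cells with 500 to 5000 genes, at most 10% mitochondrial and at most 5% hemoglobin UMIs and 0 Ptprc UMIs were kept. No doublet caller was run, and only the upper gene limit acted on doublets. Levels are UMIs summed over a group per 1000000 UMIs (CPM), with exact Poisson intervals, ratios carry exact binomial intervals, and shares carry Clopper-Pearson intervals after seeded thinning to 2000 UMIs (Python 3.11.15, numpy 2.4.6, scipy 1.17.1). Ratios were checked on simulated counts. No test was possible with 1 library per day. Other cell limits, marker limits, denominators and thinning depths were tried. Genes named by rule were the members, the genes that set the groups, the listed genes, the 5 most correlated with each member (at least 1000 UMIs), and the 10 highest and 5 lowest in the Sox9 splits (at least 200 UMIs per day, same sign on both). Of the genes most correlated with Sox5, 1 is not reported here. A gene counted as changed at 2-fold with at least 50 UMIs. The members, lists and groups were chosen with earlier results of these data known.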

Additional observations from a re-analysis of the deposited data

Results flagged for a closer look

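Signal of the trio was also found in cells left out of the comparisons. More than 5000 genes and no Ptprc UMI were counted in 280 barcodes of day 7, 741 of day 10 and 945 of day 14, all above the upper gene limit. Sox9 there was 776, 532 and 325 CPM at day 7, 10 and 14. Sox5 was 61.8, 65.8 and 40.8 CPM, and Sox6 was 112, 87.0 and 67.6 CPM. At day 10 and day 14 these values lie near those of all retained cells (543 and 322 for Sox9).

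Cells with a Ptprc UMI, set aside as blood cells, held less. Sox9 was 19.1 CPM in 6570 cells at day 7, 82.5 CPM in 6 cells at day 10, from 5 UMIs, and 133 CPM in 173 cells at day 14. Sox5 was 1.19 CPM at day 7 and 20.4 CPM at day 14. Sox6 was 2.23 and 34.1 CPM. Among the 173 cells of day 14, the 113 with under 50 matrix UMIs per 10000 held Sox9 at 35.3 CPM.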

How the results depend on the processing

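No replicates exist, so a value was said to move when it left the counting interval of its mean over day 10 and day 14. Of 95 values recomputed, 63 stayed within it and 32 moved. Of the 72 that are log2 ratios and so have a direction, 0 changed it, and the cause of the moves was not tested. On the Cnmd contrast (main log2 1.27, 1.74 and 1.46 for Sox9, Sox5 and Sox6), no mitochondrial or hemoglobin limit gave 1.64 for Sox5 and 1.39 for Sox6. A Cnmd limit of 10 gave 1.23 for Sox9 and 1.63 for Sox5, and one of 50 gave 1.09, 2.06 and 1.39. A zero group with under 5 Col10a1, chosen after seeing the data, gave 1.41 for Sox9 and 1.74 for Sox6. Sox5 stayed within its interval there, at 1.70, and no longer had the steepest ratio. Leaving the 20 most abundant genes out of the total gave 1.30 for Sox9. On the hypertrophy contrast (-0.33, -2.20 and -0.46), the Cnmd limit of 50 gave -0.19, -2.48 and -0.36, the same total -0.27 for Sox9, the mean over cells -0.29 for Sox6, and thinning to 2000 UMIs -0.41 for Sox9 and -0.24 for Sox6. The share of cartilage cells with all 3 genes (2.24% at 2000 UMIs) was 0.476% at 1000 UMIs, 11.5% at 5000 and 55.8% unthinned, set by the depth itself.

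Mean levels in Aspn-high cells (260.5, 40.0 and 35 CPM for Sox9, Sox5 and Sox6) became 225, 33.4 and 26.1 with an Aspn limit of 50, and 228, 31.8 and 26.6 without cells with at least 5 Cnmd or Col10a1. In Ifitm5-positive cells (348, 31.5 and 73.4) they became 251, 17.3 and 57.3 without such cells, and 186, 6.71 and 49.5 with at least 5 Ifitm5. The Sox5 level of osteoblast-like cells therefore depends on the limit. No paired analysis was possible because each day has 1 library and no result comes from a test.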

Other observations

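Cycling cells, with at least 5 UMIs per 10000 of Mki67, Top2a, Ccnb2 and Cdk1 together, had the trio as well. Among cells with at least 5 Cnmd, Sox9 was 580.4 CPM (95% interval 545 to 618) at day 10 in 86 cycling cells and 689 in the other 3505. Sox5 was 89.1 (75.4 to 104) against 90.0, and Sox6 118 (102 to 136) against 115, both within counting error. At day 14 Sox9 was 434 against 445. In cells with under 5 Cnmd, cycling ones had less Sox9, 187 against 340.3 CPM at day 10 and 130.3 against 258 at day 14.

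Cells with at least 200 Col10a1 were also set beside cells without Cnmd. The groups share 49 cells at day 10 and 217 at day 14, and the intervals treat them as separate. Sox9 was higher in the hypertrophic cells, with log2 ratios of 0.89 (0.83 to 0.95) at day 10 and 0.92 (0.88 to 0.97) at day 14, and so was Sox6, with 1.01 (0.84 to 1.18) and 1.02 (0.91 to 1.13). Sox5 had -0.48 (-0.78 to -0.19) and -0.30 (-0.51 to -0.10). The median over all genes was -0.25 and -0.28, which lies inside both Sox5 intervals.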
